A study of Mus musculus with 4 samples.

Results

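Direct target genes of p53 and regulators of p53 were examined in mouse ES cells with and without Npac. The group held 40 genes, chosen by name from the 56748 genes in the authors' count table as known p53 targets or as genes that act on p53. No cut on their values was used, but earlier results of these data were known when they were chosen. All 40 passed the filter on low counts and were among the 18157 genes tested. They were sorted by what their products do into p53 and its regulators (6 genes), cell cycle and mitosis (9 genes), cell death and stress signalling (10 genes), DNA repair and nucleotide supply (5 genes), metabolism and redox (9 genes) and 1 other gene, Def6.

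The study asked what is lost in ES cells without Npac, a reader of the H3K36me3 mark that is named Glyr1 in gene annotations. The cells were E14, an ES cell line of the mouse that was grown on gelatin without feeder cells, in medium with serum and LIF. The RNA was sequenced in 4 libraries, WT1 and WT2 of WT cells and KO1 and KO2 of Npac KO cells, each KO library being a line of its own. The KO lines were colonies picked after electroporation of guide RNA and Cas9 plasmids and selection with puromycin, a treatment that is not described for the WT cells, and no other allele or agent is named for either group. The labels do not say whether WT1 and WT2 were separate cultures, so p-values measure the spread between these libraries only.

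p53 is a transcription factor that is made continuously and destroyed continuously. Its partners Mdm2 and Mdm4 hold it in check, Mdm2 by marking it for degradation, and DNA damage and other stresses release it. Stabilized p53 switches on genes that stop the cell cycle, repair DNA, reset metabolism or start cell death, and it also switches on Mdm2, which closes a feedback loop. Mouse ES cells are known for abundant p53 protein and a weak p21-dependent arrest in G1.

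Of the 40 genes, 14 (35.0%) were up-regulated in Npac KO cells, at a Benjamini-Hochberg adjusted p under 0.05 from the quasi-likelihood test of edgeR and a fold change over 1.5, and 3 (7.5%) were down-regulated. Over all genes tested, 11% were up-regulated, 10.7% down-regulated and 21.7% passed in either direction. The up-regulated genes were Trp53, which encodes p53, Mdm2, Mdm4, Ccng1, Gtse1, Ckap2, Ptp4a3, Trp53inp1, Steap3, Polk, Rrm2b, Sesn1, Dcxr and Ak1. The down-regulated genes were Gdf15, Plk3 and Ddb2. Cdkn1a, which encodes the cell cycle inhibitor p21, did not pass the test. Both KO libraries lay above both WT libraries for 27 genes and below them for 5 genes, where 33.2% and 32.5% of all genes did so, and the groups overlapped for 8 genes. The log2 fold change was positive for 32 of the 40 genes, against 50.1% of all genes, and its median was 0.59, against 0.0015 for all genes. In bulk RNA, fewer cells that express a gene and less of its RNA per cell cannot be told apart.

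**Figure D1:**
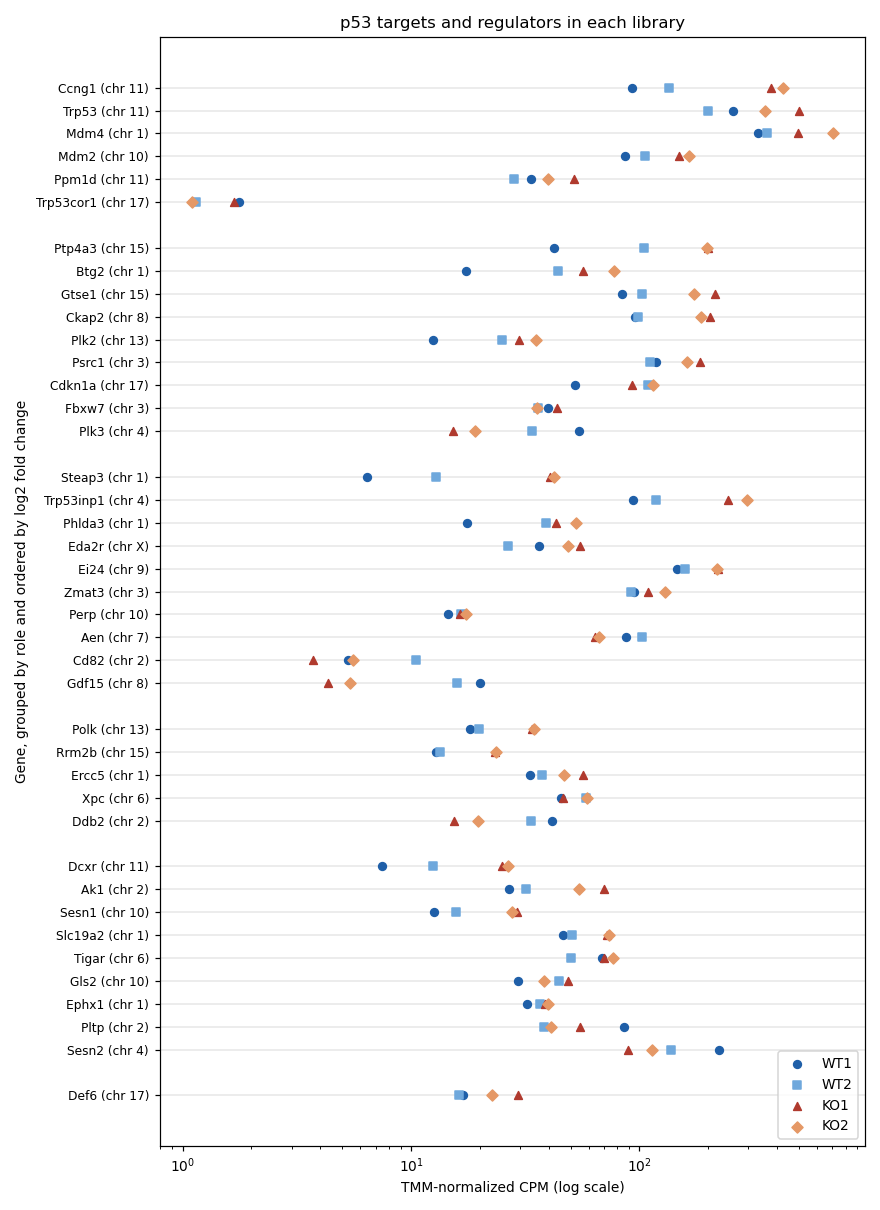
Expression of the 40 genes in each library, in CPM (read counts scaled to a common library size with TMM normalization) on a log scale, grouped by what the products do. Each point is 1 library; Ccng1, Steap3 and Trp53inp1 lay far above WT in both KO libraries, and Gdf15, Plk3 and Ddb2 lay below.

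The libraries held 15850805 to 16965120 counted reads. Glyr1, the targeted gene, was at 259 and 178 CPM in WT1 and WT2 and at 47.9 and 51.3 CPM in KO1 and KO2, which is 22.7% of the WT mean (log2 fold change -2.14, adjusted p = 0.00174). Of 8 ES cell markers, Pou5f1, Sox2 and Nanog were read at 448 to 908 CPM in every library and only Zfp42 passed, downward. Over all genes tested, 11% were up-regulated and 10.7% down-regulated. Both KO libraries lay below both WT libraries for 5 of the 8, where 32.5% of all genes did so, and the groups overlapped for Nanog. The KO libraries lay above for 2, where 33.2% of all genes did so. These were Dppa5a and Utf1, which did not pass (log2 fold change 0.27 and 0.48). Summed over the 8 markers, WT1 and WT2 held 7054 and 5744 CPM, against 4890 and 4632 CPM for KO1 and KO2. Of 8 fibroblast markers, 4 had 3 reads or fewer in every library and Col3a1 and Dcn had none. Col1a1, on chromosome 11, was up-regulated, but not in the edgeR fit with chromosome medians removed that is described below (log2 fold change 0.82, adjusted p = 0.118). The sum was 41.1 and 76.2 CPM in WT cells and 49.9 and 60.0 CPM in Npac KO cells. Of 6 trophoblast markers, 1 of the 4 tested was up-regulated, Tfap2c, from 50.7 and 31.7 CPM in WT cells to 155 and 134 CPM in Npac KO cells. The sum was 79.8 and 75.8 CPM in WT cells and 212 and 185 CPM in Npac KO cells, where Tfap2c made up most of it. Krt7, Krt8 and Gata3 did not pass, and Cdx2 and Elf5, which were not tested, had 16 reads or fewer in every library. The sums were 20.3 to 32.5 CPM for 6 primitive endoderm markers, 92.0 to 109 CPM for 6 neural markers and 11.5 to 18.6 CPM for 6 mesoderm markers. Within them Sox7, of primitive endoderm, was down-regulated from 17.9 and 9.27 CPM to 0.257 and 0.924 CPM (log2 fold change -4.48, adjusted p = 0.00434), and Sox1, a neural marker, from 27.8 and 13.4 CPM to 3.47 and 4.62 CPM (-2.34, adjusted p = 0.00936). The part of these shifts in the results below was not tested.

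More members differed between the WT libraries than between the KO libraries, by ratios taken after 0.5 CPM was added to each value. WT2 was over 1.5-fold above WT1 for 8 of the 40 genes (20%, against 15.0% of all genes): Cdkn1a, Btg2, Plk2, Ptp4a3, Phlda3, Steap3, Cd82 and Dcxr. WT1 was over 1.5-fold above WT2 for Plk3, Sesn2 and Pltp (7.5%, against 13.4% of all genes). Between KO1 and KO2 no member differed by over 1.5-fold in either direction, while KO2 was above KO1 by that much for 7.97% of all genes and KO1 above KO2 for 4.27%. Without the added 0.5 CPM, Gls2 (WT2 above WT1) and Trp53cor1 (WT1 above WT2 and KO1 above KO2, at under 2 CPM) also passed 1.5-fold.

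Chromosomes 8 and 11 stood apart, since most of their genes were higher in KO1 and in KO2 than in WT cells. The median of the log2 difference from WT was 0.48 and 0.49 on chromosome 8 and 0.48 and 0.45 on chromosome 11 (KO1 and KO2), and between -0.19 and -0.0033 on the other autosomes. Trp53, Ccng1, Ppm1d and Dcxr lie on chromosome 11, and Ckap2 and Gdf15 lie on chromosome 8. Of the 34 members elsewhere, 10 were up-regulated and 2 were down-regulated, where 8.61% and 11.7% of all genes outside these chromosomes were, and their median log2 fold change was 0.57. Of the 6 members on these chromosomes, 4 were up-regulated, where 26.5% of all genes there were, and Gdf15 was down-regulated. A second fit with the median of each chromosome taken out of each KO library again gave 14 up-regulated and 3 down-regulated members, against 9.33% and 9.78% of all genes. In it Trp53, Ckap2 and Dcxr no longer passed, and Psrc1, Ei24 and Slc19a2 did.

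p53 binds DNA as a tetramer, at a pair of half-sites of 10 bases that may be separated by a short spacer. Promoters from 250 bases before to 50 bases after the RefSeq transcription start (GRCm38.p6) were found for 31 of the 40 genes and searched for the p53 consensus, with the central 4 bases of each half-site intact, a spacer of 0 to 13 bases and at most 3 mismatches in all. The consensus reads the same on both strands, so each search covered both. A match was found for 9 of the 31 genes (29.0%), where 7.63% of 27025 genes had one. With no spacer allowed, 6 of the 31 genes (19.4%) and 0.673% of all genes had a match. The 31 genes had 50 promoters, and a match in any promoter of a gene counted for that gene. Members were chosen as known p53 targets or genes that act on p53, so these shares are not a test of the group. A match describes the letters only; no binding was measured here. No promoter entry was matched for Trp53inp1, Rrm2b, Trp53cor1, Ddb2, Gls2, Xpc, Perp, Zmat3 and Ptp4a3. The matches in 4 up-regulated genes, Gtse1, Ckap2, Sesn1 and Trp53, are shown beside those in Cdkn1a and Aen, which were not called, with the half-sites in capitals and the spacer in lower case:
Gtse1: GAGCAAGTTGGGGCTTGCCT
Ckap2: AGACATGTCCTGACTTGTCA
Sesn1: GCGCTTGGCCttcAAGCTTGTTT
Trp53: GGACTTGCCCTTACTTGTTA
Cdkn1a: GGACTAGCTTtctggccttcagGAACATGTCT
Aen: GGGCTTGTCCGGGCAAGGAG

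The match with the fewest mismatches in Cdkn1a (chr17:29090906-29090937, + strand) had 0 mismatches and a spacer of 12 bases. That in Gtse1 (chr15:85859945-85859964, + strand) had 1 mismatch and lay across the transcription start, and those in Ckap2 (chr8:22186003-22186022, - strand) and Sesn1 (chr10:41887253-41887275, + strand) had 2. The matches in Trp53 (chr11:69580284-69580303, + strand), Aen (chr7:78895937-78895956, + strand), Tigar, Mdm4 and Pltp had 3. So 5 of the 9 genes with a match were up-regulated (Ckap2, Gtse1, Mdm4, Sesn1 and Trp53) and 4 were not called (Aen, Cdkn1a, Pltp and Tigar). Of the 22 genes with a promoter and no match, 6 were up-regulated (Mdm2, Ccng1, Steap3, Polk, Dcxr and Ak1) and 2 were down-regulated (Gdf15 and Plk3). Over all genes tested, 11% were up-regulated and 10.7% down-regulated. Sequence outside these promoter windows was not searched, so a gene with no match may have a site elsewhere. Cdkn1a also had a match with no spacer, within the limit of 3 mismatches. In its promoter below, the capitals GAACATGTCT run straight into tgacatgttc, which is left in lower case. It also has its central 4 bases intact and departs from the consensus only in its first base. The capitals mark the pair with the fewest mismatches, and which pair p53 binds was not tested. The promoters of Gtse1 (chr15:85859696-85859995, + strand) and Cdkn1a (chr17:29090729-29091028, + strand) are given whole, with the half-sites in capitals, since these genes had the matches with the fewest mismatches and only Gtse1 passed the test:
Gtse1: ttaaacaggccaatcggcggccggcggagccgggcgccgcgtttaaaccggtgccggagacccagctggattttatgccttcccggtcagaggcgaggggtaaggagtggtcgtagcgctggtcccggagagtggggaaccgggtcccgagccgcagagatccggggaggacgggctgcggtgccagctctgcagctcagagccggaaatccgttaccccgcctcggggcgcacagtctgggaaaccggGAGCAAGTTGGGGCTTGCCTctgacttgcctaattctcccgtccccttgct
Cdkn1a: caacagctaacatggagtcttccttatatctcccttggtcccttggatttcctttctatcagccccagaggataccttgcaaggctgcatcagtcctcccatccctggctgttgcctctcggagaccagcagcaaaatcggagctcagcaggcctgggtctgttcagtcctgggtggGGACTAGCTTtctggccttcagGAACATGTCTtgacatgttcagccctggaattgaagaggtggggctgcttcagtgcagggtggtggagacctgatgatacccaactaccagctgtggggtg

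Among p53 and its regulators, 4 of 6 genes were up-regulated and none was down-regulated, against 11% and 10.7% of all genes. Their median log2 fold change was 0.76. Trp53 was at 256 and 200 CPM in WT1 and WT2 and at 502 and 353 CPM in KO1 and KO2, a 1.87-fold higher mean (log2 fold change 0.91, standard error 0.24, adjusted p = 0.0322). The groups did not overlap, and KO1 was the higher of the KO pair. Without KO1 the log2 fold change was 0.62 (adjusted p = 0.275), and with chromosome medians removed it was 0.44 (adjusted p = 0.214). Reads of Trp53-ps, its processed pseudogene, came to 0.513% of the Trp53 reads in WT cells and 0.525% in Npac KO cells, and adding them left the log2 fold change at 0.91. A lncRNA gene on the opposite strand overlaps the Trp53 gene and held 55 and 22 reads in WT cells and 136 and 72 reads in Npac KO cells. Whether reads were counted by strand is not given in the sources used here.

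Mdm2, the ubiquitin ligase that targets p53 and is itself a p53 target, was at 86.0 and 105 CPM in WT cells and at 148 and 165 CPM in Npac KO cells (log2 fold change 0.71, standard error 0.19, adjusted p = 0.0342). Mdm4, its partner that blocks p53 activity, was at 330 and 361 CPM in WT cells and at 497 and 704 CPM in Npac KO cells (0.80, standard error 0.22, adjusted p = 0.0392). In both genes the groups were apart, and the Mdm4 values of the KO lines differed by 1.42-fold. The Mdm2 call was lost without WT1, where the log2 fold change of 0.55 fell under the fold threshold, without KO1 (adjusted p = 0.161) and without KO2 (0.264). That of Mdm4 was lost without KO2 (log2 fold change 0.54, adjusted p = 0.337).

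Ccng1 encodes cyclin G1, a p53 target that recruits a phosphatase to Mdm2. It was at 92.9 and 134 CPM in WT cells and at 378 and 423 CPM in Npac KO cells, 3.53-fold higher (log2 fold change 1.82, standard error 0.23, adjusted p = 0.00304). The lowest KO library was far above the highest WT library, and the call held with each library left out, with log2 fold changes of 1.55 to 2.10, and with chromosome medians removed (1.36, adjusted p = 0.00941). Ppm1d, the phosphatase Wip1 that acts on p53 and its kinases, was at 33.4 and 28.3 CPM in WT cells and at 51.8 and 39.8 CPM in Npac KO cells. The groups were apart, but the difference did not pass (log2 fold change 0.57, adjusted p = 0.100) and was 0.11 with chromosome medians removed. Trp53cor1 (lincRNA-p21), a noncoding RNA next to Cdkn1a, was at 1.10 to 1.77 CPM in all libraries, the groups overlapped, and its log2 fold change was -0.07 (adjusted p = 0.941).

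Of the 9 genes of cell cycle and mitosis, 3 were up-regulated and 1 was down-regulated, against 11% and 10.7% of all genes. Their median log2 fold change was 0.80. Cdkn1a was at 52.2 CPM in WT1, 109 CPM in WT2, 93.2 CPM in KO1 and 115 CPM in KO2. WT2 lay between the KO libraries, WT1 lay below all others, and the change did not pass (log2 fold change 0.36, standard error 0.33, adjusted p = 0.455). Without WT1 it was -0.10 (adjusted p = 0.722) and without WT2 it was 0.99 (adjusted p = 2.74e-05), so the direction rested on which WT library was used. Btg2, an antiproliferative p53 target, was at 17.4 and 44.1 CPM in WT cells and at 56.6 and 77.1 CPM in Npac KO cells. Its groups were apart, yet WT1 and WT2 differed by 2.54-fold and the log2 fold change of 1.12 had an adjusted p of 0.0817. Plk2, a stress-induced polo-like kinase, was at 12.4 and 25.1 CPM in WT cells and at 29.8 and 35.4 CPM in Npac KO cells (0.80, adjusted p = 0.124).

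Gtse1, a microtubule-associated protein of G2 and M phase that shuttles p53 out of the nucleus, was at 83.7 and 103 CPM in WT cells and at 214 and 173 CPM in Npac KO cells (log2 fold change 1.05, standard error 0.20, adjusted p = 0.0120). Ckap2, a spindle protein, was at 95.2 and 98.6 CPM in WT cells and at 204 and 185 CPM in Npac KO cells (1.01, standard error 0.17, adjusted p = 0.00869). In both genes the groups were far apart, at 2.07-fold and 2.01-fold, and replicates were close. Neither call held without KO1 (Gtse1 adjusted p = 0.103, Ckap2 0.0762), and that of Ckap2, on chromosome 8, did not hold with chromosome medians removed (log2 fold change 0.52, adjusted p = 0.0729). Psrc1, another microtubule regulator, was at 118 and 111 CPM in WT cells and at 184 and 161 CPM in Npac KO cells. It was 1.51-fold higher with no overlap and just outside the threshold (log2 fold change 0.59, adjusted p = 0.0501).

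Ptp4a3, the phosphatase PRL-3, was at 42.2 and 105 CPM in WT cells and at 199 and 197 CPM in Npac KO cells (log2 fold change 1.43, standard error 0.37, adjusted p = 0.0328). The KO lines were nearly alike while WT2 was 2.48-fold above WT1, so the log2 fold change was 0.89 without WT1 and 2.22 without WT2, and the call held in both. Plk3, a polo-like kinase of the stress response, fell from 54.4 and 34.0 CPM in WT cells to 15.3 and 19.1 CPM in Npac KO cells (log2 fold change -1.36, standard error 0.28, adjusted p = 0.0147). WT1 was the highest library and the KO pair lay under the WT pair, but the call did not hold without KO1 (adjusted p = 0.0615). So Plk2 and Plk3, a related pair, had log2 fold changes of opposite sign, and only that of Plk3 passed. Fbxw7, the substrate receptor of a ubiquitin ligase for cyclin E and Myc, lay between 35.6 and 43.7 CPM in all libraries (log2 fold change 0.06, adjusted p = 0.850).

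**Figure D2:**
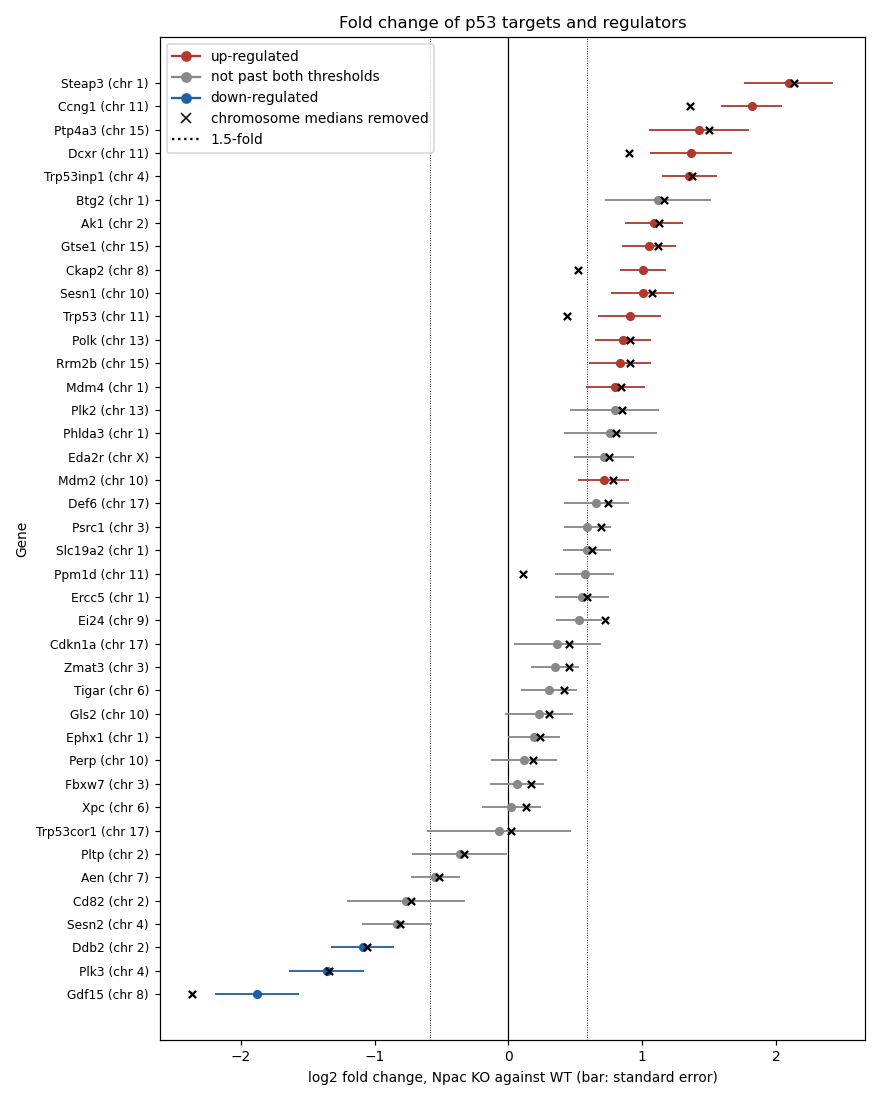
Log2 fold change of each of the 40 genes, Npac KO against WT, with bars of 1 standard error from the edgeR fit. Red points were up-regulated, blue down-regulated and grey neither, crosses show the value with chromosome medians removed and dotted lines mark a 1.5-fold change; Steap3 (2.09) and Ccng1 (1.82) stood highest and Gdf15 (-1.88) lowest.

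Of the 10 genes of cell death and stress signalling, 2 were up-regulated, 1 was down-regulated and 7 did not pass. Over all genes, 11% were up-regulated and 10.7% down-regulated. The median log2 fold change of the 10 genes was 0.44. Steap3 encodes an endosomal metalloreductase, also named TSAP6, that takes part in iron uptake and in exosome release. It was at 6.42 and 12.9 CPM in WT cells and at 40.4 and 42.3 CPM in Npac KO cells, 4.27-fold higher (log2 fold change 2.09, standard error 0.33, adjusted p = 0.00659). The KO libraries were over 3 times the highest WT library, and the log2 fold change was 1.66 to 2.68 with each library left out, with the call held each time. Trp53inp1, a nuclear protein that promotes p53 phosphorylation, autophagy and cell death, was at 93.4 and 118 CPM in WT cells and at 245 and 295 CPM in Npac KO cells, 2.55-fold higher (1.35, standard error 0.21, adjusted p = 0.00559). Its groups were well apart and the call held with each library left out.

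Gdf15, a secreted stress cytokine of the TGF-beta family, moved the other way. It fell from 20.1 and 15.9 CPM in WT cells to 4.31 and 5.43 CPM in Npac KO cells, 3.68-fold lower (log2 fold change -1.88, standard error 0.31, adjusted p = 0.00765). Both KO libraries were low and close together, the call held with each library left out, and with chromosome medians removed the log2 fold change was -2.37. Gdf15 lies on chromosome 8, where genes as a group were higher.

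Among the 7 others, the death receptor gene Eda2r was at 36.5 and 26.5 CPM in WT cells and at 54.8 and 48.6 CPM in Npac KO cells (log2 fold change 0.72, adjusted p = 0.0560). Ei24, an endoplasmic reticulum protein of autophagy, was at 146 and 158 CPM in WT cells and at 220 and 218 CPM in Npac KO cells (0.53, adjusted p = 0.0634). Neither set of libraries overlapped, and Ei24 passed with chromosome medians removed (0.72, adjusted p = 0.0271). Phlda3, an inhibitor of Akt, was at 17.5 and 38.9 CPM in WT cells and at 43.1 and 52.8 CPM in Npac KO cells (0.76, adjusted p = 0.156), and Zmat3, an RNA-binding protein, was at 95.0 and 91.7 CPM in WT cells and at 109 and 129 CPM in Npac KO cells (0.35, adjusted p = 0.195). Aen, an apoptosis-enhancing nuclease, was lower, at 87.1 and 103 CPM in WT cells and 63.7 and 66.3 CPM in Npac KO cells (-0.55, adjusted p = 0.0674). The groups were apart in these 3 genes as well, but none passed. For Perp, a membrane protein of desmosomes and cell death (log2 fold change 0.12), and Cd82, a tetraspanin (-0.77), the groups overlapped, with adjusted p values of 0.770 and 0.247.

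Of the 5 genes of DNA repair and nucleotide supply, 2 were up-regulated and 1 was down-regulated, against 11% and 10.7% of all genes. Polk, the translesion polymerase kappa, was at 18.1 and 19.7 CPM in WT cells and at 33.9 and 34.5 CPM in Npac KO cells (log2 fold change 0.85, standard error 0.21, adjusted p = 0.0260). Rrm2b, the p53-induced subunit of ribonucleotide reductase that supplies deoxynucleotides, was at 12.8 and 13.5 CPM in WT cells and at 23.4 and 23.5 CPM in Npac KO cells (0.84, standard error 0.23, adjusted p = 0.0401). Replicates of both genes nearly coincided and the groups were apart. Their calls were lost without KO1 and without KO2, though the log2 fold changes hardly moved. These were 0.86 and 0.86 for Polk and 0.83 and 0.85 for Rrm2b. Both calls were also lost with limma-trend on FPKM (adjusted p = 0.0568 and 0.0983). A processed pseudogene, Gm3362, lies on the same strand within Rrm2b. It held 2494 and 2742 reads in WT cells and 3074 and 2707 reads in Npac KO cells, so the groups overlapped. The 2 processed pseudogenes matched to Rrm2b by sequence held 0 reads in every library. Whether Gm3362 affected the Rrm2b counts was not tested.

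Ddb2, the damage sensor of nucleotide excision repair, fell from 41.4 and 33.4 CPM in WT cells to 15.4 and 19.6 CPM in Npac KO cells, 2.13-fold lower (log2 fold change -1.09, standard error 0.24, adjusted p = 0.0177). No KO library reached a WT library, and the call was lost without KO1 (adjusted p = 0.170) and without KO2 (0.0636). Its gene overlaps Acp2 on the opposite strand, which held 487 and 346 reads in WT cells and 206 and 158 reads in Npac KO cells. The other excision repair genes did not pass the test. Ercc5, the endonuclease XPG, was at 33.1 and 37.5 CPM in WT cells and at 56.6 and 46.7 CPM in Npac KO cells (log2 fold change 0.55, adjusted p = 0.0888), and Xpc, another damage sensor, overlapped between the groups at 45.2 to 58.9 CPM (0.02, adjusted p = 0.957).

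Of the 9 genes of metabolism and redox, 3 were up-regulated and none was down-regulated, against 11% and 10.7% of all genes. Their median log2 fold change was 0.30. The sestrins, leucine and stress sensors that restrain mTORC1, had log2 fold changes of opposite sign. Sesn1 was at 12.6 and 15.7 CPM in WT cells and at 29.1 and 27.7 CPM in Npac KO cells (log2 fold change 1.00, standard error 0.24, adjusted p = 0.0231), and its call was lost without KO1 (adjusted p = 0.178) and without KO2 (0.126). Sesn2, which is also a target of the integrated stress response, was at 224 and 137 CPM in WT cells and at 89.3 and 113 CPM in Npac KO cells (-0.83, standard error 0.26, adjusted p = 0.0579). In both genes the groups were apart, and only Sesn1 passed.

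Dcxr, dicarbonyl and L-xylulose reductase, was at 7.46 and 12.5 CPM in WT cells and at 25.0 and 26.7 CPM in Npac KO cells (log2 fold change 1.37, standard error 0.30, adjusted p = 0.0190). Ak1, the adenylate kinase that balances adenine nucleotides, was at 26.8 and 31.8 CPM in WT cells and at 70.3 and 54.3 CPM in Npac KO cells (1.09, standard error 0.22, adjusted p = 0.0134). In both, each KO library was above each WT library. The Dcxr call was lost without KO2 (adjusted p = 0.0780) and with chromosome medians removed (log2 fold change 0.90, adjusted p = 0.0749), and that of Ak1 was lost without KO1 (0.149). Slc19a2, the high-affinity thiamine transporter, was at 46.1 and 50.8 CPM in WT cells and at 72.2 and 73.4 CPM in Npac KO cells (0.59, adjusted p = 0.0526).

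Tigar, which lowers glycolytic flux, was at 68.5 and 50.2 CPM in WT cells and at 69.9 and 76.5 CPM in Npac KO cells (0.30, adjusted p = 0.330), and Ephx1, a microsomal epoxide hydrolase, was at 32.1 and 36.5 CPM in WT cells and at 38.5 and 39.8 CPM in Npac KO cells (0.19, adjusted p = 0.515). The groups were apart by little and neither passed. They overlapped for Gls2, mitochondrial glutaminase (0.23, adjusted p = 0.547), and for Pltp, phospholipid transfer protein (-0.37, adjusted p = 0.497). Gls2 and Pltp overlap Spryd4 and Ctsa on the opposite strand. Def6, a guanine nucleotide exchange factor, was at 16.9 and 16.1 CPM in WT cells and at 29.5 and 22.5 CPM in Npac KO cells, with no overlap but short of the threshold (0.66, adjusted p = 0.0896).

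**Figure D3:**
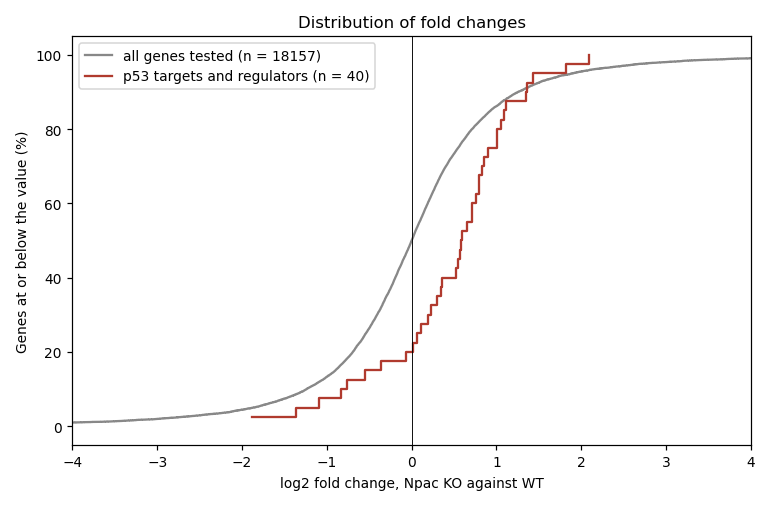
Cumulative share of genes (%) at or below each log2 fold change, Npac KO against WT, for the 40 genes beside all 18157 genes tested, with the axis limited to -4 to 4. The median was 0.59 for the members and 0.0015 for all genes, and members lay on both sides of 0.

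Without the adjustment for multiple testing, 23 members were higher and 5 were lower at p under 0.05, where 18.7% and 18.8% of all genes were. Of the 17 members called, 5 kept their call with each of the 4 libraries left out in turn: Ccng1, Ptp4a3, Trp53inp1, Steap3 and Gdf15. With each WT library left out, 16 of the 17 kept it, all but Mdm2. Without KO1 or without KO2 fewer members passed, and fewer of all genes passed as well. The median log2 fold change of the members was 0.50 without KO1 and 0.64 without KO2, against 0.59 with all libraries.

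On the length-corrected FPKM scale, where levels of different genes can be set side by side, Trp53 (56.0 FPKM), Sesn2 (51.6 FPKM), Psrc1 (33.8 FPKM), Gtse1 (33.8 FPKM) and Ccng1 (32.1 FPKM) were the highest members in WT cells. The libraries of Trp53 and Sesn2 overlapped on this scale, and so did those of Psrc1, Gtse1 and Ccng1. In Npac KO cells the highest were Ccng1 (113 FPKM), Trp53 (105 FPKM), Gtse1 (69.8 FPKM), Ckap2 (59.9 FPKM) and Psrc1 (50.8 FPKM), and the ranges of Ccng1 and Trp53 overlapped, as did those of Gtse1 and Ckap2. Trp53cor1 was lowest in both groups, at 0.387 FPKM in WT cells and 0.368 FPKM in Npac KO cells. Plk3 went from rank 14 of the 40 genes to rank 33 and Ddb2 from 18 to 34, while Trp53inp1 went from 16 to 7 and Ptp4a3 from 29 to 16.

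Around these genes, 79 further genes of the p53 pathway were listed and 77 were tested (Trp63 and Igf1 were not). Of these, 16 passed the test upward and 7 downward, where 11% and 10.7% of all genes were, and the median log2 fold change was 0.16. Of 22 kinases and modifiers upstream of p53, 1 passed upward and 2 passed downward. Chek2, the checkpoint kinase that phosphorylates p53, was at 38.7 and 33.1 CPM in WT cells and at 108 and 120 CPM in Npac KO cells (log2 fold change 1.67, adjusted p = 0.00217). Crebbp, an acetyltransferase of p53, was at 46.7 ± 3.19 CPM in WT cells and at 23.9 ± 4.08 CPM in Npac KO cells (SD, n = 2), with a log2 fold change by the edgeR fit of -0.96 (adjusted p = 0.0192). Cop1, a ubiquitin ligase for p53, was at 65.1 and 62.0 CPM in WT cells and at 39.6 and 40.3 CPM in Npac KO cells (-0.67, adjusted p = 0.0360). Atm, Atr and Chek1 did not pass, with log2 fold changes of 0.50, -0.04 and 0.11. Trp73, the p53 relative p73, was at 1.83 and 2.69 CPM in WT cells and at 14.2 and 14.3 CPM in Npac KO cells, 6.26-fold higher (2.65, adjusted p = 0.00399).

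Of 17 genes of the apoptosis branch, 4 were up-regulated and 2 were down-regulated, against 11% and 10.7% of all genes. The median log2 fold change of this list was -0.11. Pmaip1, the BH3-only protein Noxa, was at 33.4 and 57.6 CPM in WT cells and at 139 and 152 CPM in Npac KO cells (log2 fold change 1.67, adjusted p = 0.00681). Apaf1, the apoptosome scaffold (0.81, adjusted p = 0.0442), and Pidd1, the scaffold of the PIDDosome (0.70, adjusted p = 0.0497), were up-regulated by less. Bcl2l1, which encodes the survival protein Bcl-xL, was at 62.7 and 65.0 CPM in WT cells and at 34.4 and 29.0 CPM in Npac KO cells (-1.01, adjusted p = 0.0118), and Shisa5 (Scotin), a death protein of the endoplasmic reticulum, was also down-regulated (-0.99, adjusted p = 0.0414) but not with chromosome medians removed (adjusted p = 0.0835). The effectors Bax and Bak1 and the BH3-only gene Bbc3, which encodes Puma, did not pass, with log2 fold changes of -0.11, -0.17 and 0.10.

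Of 14 genes of the cell cycle branch, 4 were up-regulated and 2 were down-regulated, against 11% and 10.7% of all genes. Sfn, the 14-3-3 sigma protein of the G2 checkpoint, was at 5.50 and 12.6 CPM in WT cells and at 71.4 and 63.4 CPM in Npac KO cells, 7.39-fold higher (log2 fold change 2.89, adjusted p = 0.00321). Gadd45a, a stress sensor and p53 target, was at 157 and 106 CPM in WT cells and at 23.2 and 23.7 CPM in Npac KO cells, 5.59-fold lower (-2.48, adjusted p = 0.00114). The groups were far apart in both, in opposite directions. The cyclins Ccnd2 (2.75, adjusted p = 0.00769), Ccnd1 (1.43, adjusted p = 0.0268) and Ccne1 (0.67, adjusted p = 0.0290) were up-regulated and Ccnd3 was down-regulated (-1.04, adjusted p = 0.00774). Of 16 mitotic and S phase genes that p53 is known to repress through p21 and the DREAM complex, 4 were up-regulated and none was down-regulated: Aurkb (1.65, adjusted p = 0.00222), Top2a (1.03, adjusted p = 0.0124), Aurka (1.02, adjusted p = 0.0104) and Plk1 (1.01, adjusted p = 0.0100). Aurkb and Top2a lie on chromosome 11, and Top2a did not pass with chromosome medians removed (0.57, adjusted p = 0.0807).

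Of 7 tested genes of the growth factor, matrix and mTOR branch, 2 were up-regulated and 1 was down-regulated. Over all genes, 11% were up-regulated and 10.7% down-regulated. Adgrb1, the adhesion receptor BAI1, was at 72.3 and 57.5 CPM in WT cells and at 18.1 and 21.4 CPM in Npac KO cells (log2 fold change -1.71, adjusted p = 0.00321). Serpinb5 (maspin) had 3 reads over both WT libraries and 43 over both KO libraries, a ratio of 14.3 with a 95% counting interval of 4.57 to 72.0 that covers counting error only (adjusted p = 0.0118).

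Of the 23 calls in the pathway lists, 9 held with each library left out: Chek2, Trp73, Pmaip1, Sfn, Gadd45a, Ccnd2, Aurkb, Top2a and Adgrb1. The other 14 were lost without KO1 (adjusted p from 0.0544 to 0.362), 10 of them also without KO2 (0.0578 to 0.294), and Apaf1 and Pidd1 fell under the fold threshold without WT1.

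**Figure D4:**
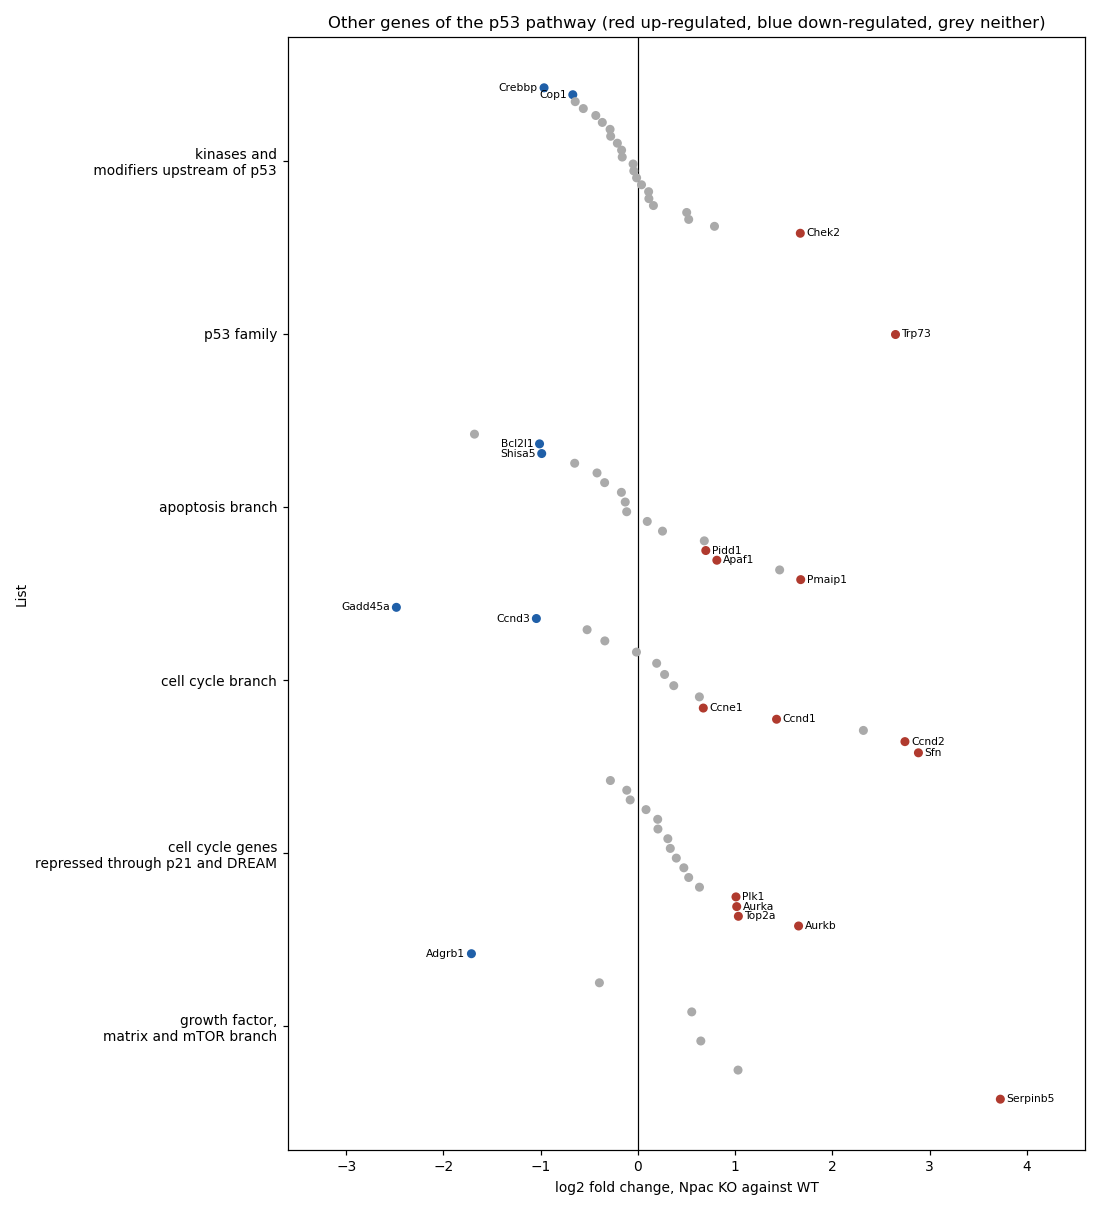
Log2 fold change of further genes of the p53 pathway, by list, with those past both thresholds coloured red (up-regulated) or blue (down-regulated) and named. Trp73, Sfn, Ccnd2 and Serpinb5 lay highest, Gadd45a lay lowest, and the upstream kinases and modifiers lay on both sides of 0; the value of Serpinb5 rests on 3 WT reads.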

How the data were processed

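RNA-seq counts of 4 libraries were analysed. The deposited values are raw counts of reads on each gene, with no scaling, which the authors made from paired-end reads mapped by HISAT, and FPKM, which the authors derived from these counts. The submitters' processing notes name HISAT2 2.0.5, featureCounts 1.5.0-p3 and mm10. However, gene starts in the deposited table equal those of GRCm38 for 1 of the 40 members only. Gene starts and ends in that table were used only to find genes that overlap a member within the same table, and are not printed. The chromosome of each gene was also taken from it. Coordinates printed here are those of the RefSeq promoters (GRCm38.p6). Strand settings are not given in the sources used here.

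Counts were fitted in R 4.3.3 with edgeR 4.0.16 (TMM, filterByExpr, quasi-likelihood test) over 18157 genes, 2 libraries against 2, with Benjamini-Hochberg adjustment over all of them. The common biological coefficient of variation was 0.235. Log2 fold changes and standard errors come from this fit, and CPM values are TMM-normalized. The test was checked on simulated counts. Same-numbered libraries deviated from their group means with a correlation of 0.35, and with 2 pairs the numbers were not taken as pairs. The alternatives were DESeq2 1.42.0, limma-trend (limma 3.58.1) on log2(FPKM + 1), upper-quartile scaling, other count filters, no fold threshold, a replicate block, removal of chromosome medians and each library left out. Sums with processed pseudogenes, matched by blastn 2.17.0+ (identity of 90% or more, covering 60% or more of the pseudogene), were added after seeing the data.

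The members and lists were chosen with earlier results of these data known. Named with the value of every library are members past both thresholds, Trp53, Mdm2, Mdm4, Cdkn1a, members on chromosomes 8 and 11 and members whose groups do not overlap. Of the pathway lists, genes past both thresholds are named except 2, which are not reported here, and 6 that were not, Atm, Atr, Chek1, Bax, Bak1 and Bbc3, were chosen after their values were seen.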

Additional observations from a re-analysis of the deposited data

How the results depend on the processing

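Apart from leaving out a library, the number of up-regulated members was 12 to 21 and of down-regulated members 3 or 4 under every alternative, and the median log2 fold change of the members stayed between 0.55 and 0.62. With the replicate number as a replicate block, which the sources do not give as a pairing, 21 members were up-regulated and 4 down-regulated, against 3128 up-regulated and 2994 down-regulated genes in all (1999 and 1946 without it). With limma-trend on FPKM, 4 genes of the pathway lists were down-regulated in place of 7. With at most 2 mismatches 4 members had a promoter match in place of 9 (12.9%, against 2.47% of all genes), and with at most 4 mismatches 12 had one (38.7%, against 17.0%). Leaving out each library in turn gave 7 to 21 up-regulated and 1 to 5 down-regulated members, a member median of 0.50 to 0.64, 7 to 22 up-regulated and 2 to 13 down-regulated pathway genes, and 826 to 3571 up-regulated and 821 to 3384 down-regulated genes in all. With 1 library left in a group, that library is assumed to vary like the other group. Of the members' single values, 253 kept their direction and their side of the threshold under the alternatives that keep all libraries, 24 newly passed and 5 no longer passed; with a library left out these numbers were 116, 16 and 18. Changes of sign were seen for members that did not pass. Trp53cor1 went to 0.017 with chromosome medians removed. With a library left out, the log2 fold change ranged from -0.41 to 0.24 for Trp53cor1, from -0.10 to 0.99 for Cdkn1a, from -0.10 to 0.22 for Fbxw7, from -0.0040 to 0.21 for Perp, from -0.18 to 0.21 for Xpc, from -0.060 to 0.55 for Gls2 and from -0.84 to 0.30 for Pltp. The causes were not tested. The 2 libraries a group limit the precision, and floors and intervals cover counting error only.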
